A study of Mus musculus with 40 samples.

Results

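The striatal dopamine signalling genes are 8 genes of the neurons that receive dopamine in the striatum, namely Ppp1r1b, Penk, Drd1, Drd2, Adora2a, Pde10a, Rgs9 and Tac1, and they were read here in RNA from dissected mouse cortex. The members are all transcripts of the deposited table that map to these symbols. That gave 9 of 6831 transcripts, from 5 of the 8 genes. Drd2, Adora2a and Tac1 were not analysed here. The genes were chosen by their behaviour in these libraries, since striatal genes were known to be lower in saline HF-HI than in saline sham and higher in memantine HF-HI than in saline HF-HI. Both of those contrasts are therefore given as a description, with no test.

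The libraries came from the cortex of 40 male C57BL/6 mice at 12 weeks of age, taken 24 h after a course of high-frequency head impacts (HF-HI) or of a sham procedure ended. Saline or memantine, which blocks the NMDA class of glutamate receptor, had been injected intraperitoneally 1 h before each daily session. There were 10 libraries in each of 4 groups, which were the sham procedure after saline or after memantine and HF-HI after saline or after memantine. All mice were anaesthetised, and the sham mice received no impact, so that the sham groups share handling, injection and anaesthesia with the HF-HI groups. Summed counts per library were between 13322404 and 17529644, and the size factors that scale them were between 0.859 and 1.141. The correlation between any pair of libraries was between 0.940 and 0.965, and no pair looked like a single library deposited again. Levels are given as normalised counts, which are read counts divided by the library's size factor. Group differences are given on the deposited scale, a variance-stabilised log2 scale on which a doubling from 3000 counts measures 0.668 and a doubling from 500 counts measures 0.346.

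Projection neurons of the striatum come in a pair of classes. One carries the D1 dopamine receptor, encoded by Drd1, which raises cyclic AMP through the G protein subunit Gnal and the adenylyl cyclase Adcy5. The other carries the D2 receptor and makes enkephalin from the precursor encoded by Penk. Both classes use Ppp1r1b (DARPP-32), which inhibits protein phosphatase 1 once protein kinase A has phosphorylated it, Pde10a, a phosphodiesterase that breaks down cyclic AMP and cyclic GMP, and Rgs9, whose striatal form speeds the switching off of inhibitory G proteins. The striatum lies under the cortex and is the richest site of these transcripts in the brain, while the cortex holds them at lower levels, Penk in some interneurons and Ppp1r1b and Drd1 in deep layers.

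In build GRCm38 (mm10), Ppp1r1b lies at chromosome 11, 98348406 to 98357796, Rgs9 at chromosome 11, 109225348 to 109298181, Penk at chromosome 4, 4133536 to 4138815, Drd1 at chromosome 13, 54051183 to 54055658, and Pde10a at chromosome 17, 8525187 to 8986648. The sequences before the transcription starts are shown for the 3 genes that the RefSeq promoter table for GRCm38.p6 holds, so not for Ppp1r1b or Penk. They are given as a description, and no link to the levels was tested. Each is the 250 bases before a start, written 5′ to 3′ on the gene's strand. Capitals mark a GC box (GGGCGG) or a TATA box (TATAAA) on either strand. The core of the cyclic AMP response element (TGACG, either strand) was also searched for.

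Drd1 inner start, chr13:54054781-54055030, minus strand: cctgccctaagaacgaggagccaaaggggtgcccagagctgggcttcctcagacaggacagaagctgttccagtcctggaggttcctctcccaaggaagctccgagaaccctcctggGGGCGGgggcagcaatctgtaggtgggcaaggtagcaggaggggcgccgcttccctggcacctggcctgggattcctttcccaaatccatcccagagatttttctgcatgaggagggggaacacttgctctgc

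Drd1 outer start, chr13:54055659-54055908, minus strand: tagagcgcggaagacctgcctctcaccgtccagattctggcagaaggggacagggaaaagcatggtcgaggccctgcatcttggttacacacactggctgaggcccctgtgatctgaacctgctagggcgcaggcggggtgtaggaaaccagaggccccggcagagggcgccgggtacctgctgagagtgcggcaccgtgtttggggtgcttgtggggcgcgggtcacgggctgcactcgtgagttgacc

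Pde10a upstream start, chr17:8801495-8801744, plus strand: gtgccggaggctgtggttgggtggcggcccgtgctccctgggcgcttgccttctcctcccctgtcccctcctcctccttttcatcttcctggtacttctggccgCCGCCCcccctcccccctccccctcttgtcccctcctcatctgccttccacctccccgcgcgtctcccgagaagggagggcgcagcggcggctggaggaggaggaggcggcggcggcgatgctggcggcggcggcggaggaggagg

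Pde10a downstream start, chr17:8849735-8849984, plus strand: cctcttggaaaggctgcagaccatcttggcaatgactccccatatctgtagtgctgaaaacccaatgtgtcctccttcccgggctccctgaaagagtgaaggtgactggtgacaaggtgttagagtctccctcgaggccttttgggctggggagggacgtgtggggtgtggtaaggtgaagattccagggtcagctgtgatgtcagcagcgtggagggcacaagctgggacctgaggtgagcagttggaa

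Rgs9, chr11:109298182-109298431, minus strand: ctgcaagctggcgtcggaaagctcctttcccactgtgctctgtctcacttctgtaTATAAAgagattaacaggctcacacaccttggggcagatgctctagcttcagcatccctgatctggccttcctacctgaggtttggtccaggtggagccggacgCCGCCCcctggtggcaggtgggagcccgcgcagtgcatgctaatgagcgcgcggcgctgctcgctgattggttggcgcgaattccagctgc

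The GC box was present in 3 of these 5 windows, and 32.7% of 32851 windows of the same length in the table hold it. The TATA box was present in the Rgs9 window alone, against 12.4% of all windows. None of the 5 windows held the cyclic AMP response core, which 17.8% of all windows hold. The table does not say which Drd1 or Pde10a transcript of the counts uses which start. Both Pde10a windows lie inside the span given for the gene, so upstream and downstream name only their order. No window at the outer end of that span was held.

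The first question was how strongly these genes are read in cortical RNA. Divided by transcript length, the mean level was 1622.5 normalised counts per kilobase for Ppp1r1b (NM_144828), 1213 for the Pde10a transcript NM_001290707 and 682 for the Pde10a transcript NM_011866. The Rgs9 transcripts NM_001165934 and NM_011268 had 822 and 641 counts per kilobase. Drd1, with both of its transcripts summed over the one matched length, had 430. No matched length was found for the Penk transcript (NM_001348209) or the Pde10a transcript NM_001347321. Each of these 5 transcripts was thus above Drd1 per length. With coefficients of variation within groups of 33.2% for NM_001290707, 14.1% for NM_001165934, 30.4% for NM_011866 and 16.5% for NM_011268, these 4 transcripts of Pde10a and Rgs9 lay within 1 SD of their neighbours among the 4 in the order of levels, counting the SD of the more variable neighbour. The gap to Drd1 below them was larger than that, and the gap to Ppp1r1b above them only slightly larger. This order sets single transcripts of Pde10a and Rgs9 beside Drd1 summed, so it does not rank the genes. Levels per length were not summed for Pde10a or Rgs9. Not per length, the mean over all libraries was 3247 normalised counts for Ppp1r1b and 3475 for Penk. With transcripts summed by gene, it was 1515 for Drd1, 10497 for Pde10a and 3461 for Rgs9.

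Ppp1r1b, the phosphatase inhibitor, ran from 2351 to 4003 normalised counts in saline sham (median 3604), from 2415 to 3287 in saline HF-HI (median 2845), from 2660 to 4101 in memantine sham (median 3660) and from 2266 to 3757 in memantine HF-HI (median 3352). All 10 saline HF-HI libraries were below the saline sham median, yet every one of them lay above the lowest sham library, so the groups overlapped. Saline HF-HI was also the tightest group, with a coefficient of variation of 8.90% against 13.2% to 16.2% in the others.

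Penk, the enkephalin precursor, ran from 2523 to 4419 normalised counts in saline sham (median 3847), from 2514 to 4479 in saline HF-HI (median 2920), from 2573 to 4268 in memantine sham (median 3640) and from 2123 to 4671 in memantine HF-HI (median 3762). Of the 10 saline HF-HI libraries, 9 were below the saline sham median, and the remaining one, replicate 1, was above every saline sham library. Memantine HF-HI held both the lowest and the highest of all 40 libraries for this gene.

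Drd1, the D1 receptor, ran from 781 to 1968 normalised counts in saline sham (median 1688), from 1209 to 1991 in saline HF-HI (median 1451), from 1089 to 1835 in memantine sham (median 1518) and from 884 to 1903 in memantine HF-HI (median 1629). The lowest and the highest library thus lay in the 2 saline groups, and the highest was saline HF-HI replicate 1. Pde10a, the phosphodiesterase, ran from 7919 to 13952 normalised counts in saline sham (median 11456), from 7511 to 11540 in saline HF-HI (median 9361), from 8583 to 13162 in memantine sham (median 11431) and from 7189 to 11621 in memantine HF-HI (median 10684). Rgs9, the G protein regulator, ran from 2590 to 4305 normalised counts in saline sham (median 3768), from 2442 to 4093 in saline HF-HI (median 3156), from 2855 to 4284 in memantine sham (median 3447) and from 2432 to 4219 in memantine HF-HI (median 3582). For all 5 genes, no group stood fully apart from another. How often that holds over all genes was not counted, so this is a description only.

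**Figure D1:**
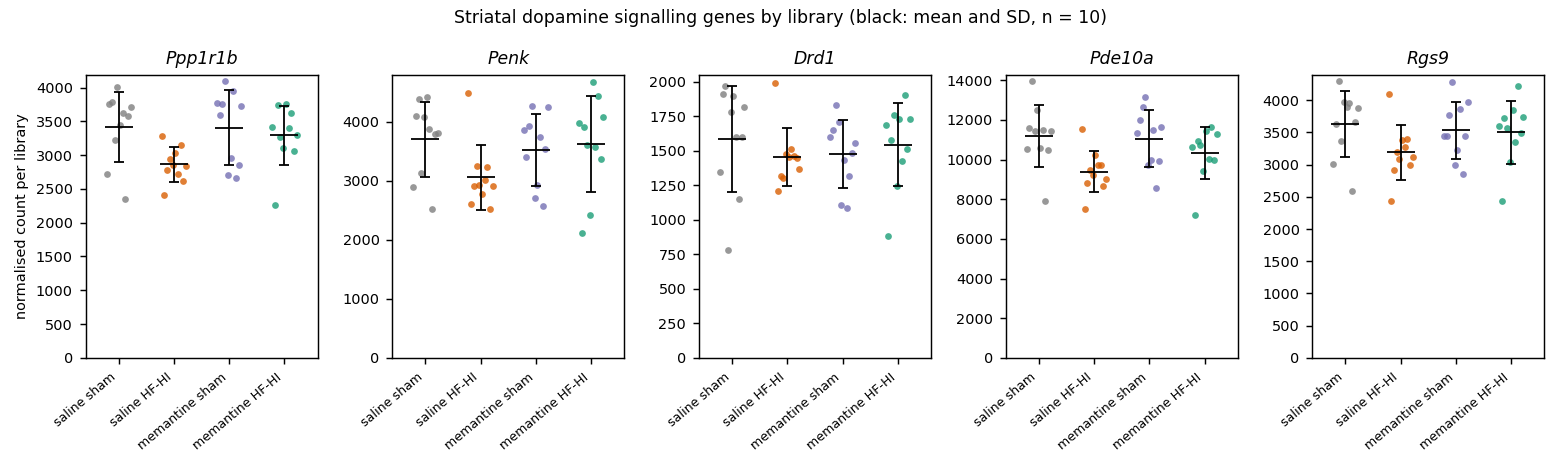
Normalised count per library (vertical axis) of 5 striatal dopamine signalling genes, transcripts summed by gene, in the 4 groups (horizontal axis, 10 libraries each). Points are libraries and black marks are the mean and SD. The saline HF-HI libraries sit low and close together, apart from replicate 1 for Penk, Drd1, Pde10a and Rgs9, and every gene overlaps between groups.

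Several libraries were low or high for most or all of the genes at once. Memantine HF-HI replicate 2 was the lowest of all 40 libraries for Ppp1r1b, Penk, Pde10a and Rgs9, with 2266, 2123, 7189 and 2432 normalised counts, and the lowest of its group for Drd1 with 884. Saline sham replicate 8 was the lowest of its group for Ppp1r1b, Penk, Pde10a and Rgs9. For Drd1, with 1150, it lay above replicate 4 of that group (781). Saline HF-HI replicate 1 was the highest of its group for all 5 genes. Between the lowest and the highest library the level differed 1.81-fold for Ppp1r1b, 2.20-fold for Penk, 2.55-fold for Drd1, 1.94-fold for Pde10a and 1.77-fold for Rgs9. The SD within groups on the deposited scale was 0.13 for Ppp1r1b, 0.18 for Penk, 0.14 for Drd1, 0.16 for Pde10a and 0.13 for Rgs9, against a median of 0.044 over all 5853 genes. That placed them between the 92.6th percentile (Rgs9) and the 96.6th percentile (Penk) of all genes. Counting error accounts for a coefficient of variation of 0.976% to 2.57% at these levels, where the observed one within groups was 12.8% for Pde10a, 13.5% for Rgs9, 13.6% for Ppp1r1b, 18.9% for Penk and 19.1% for Drd1.

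The members were next compared with each other across libraries, with the group means removed so that differences between groups do not enter the values. The genes were still chosen as a set known to shift together in these libraries, so the correlations are not free of that choice. All 10 pairs of genes were positively correlated over the 40 libraries. Pearson's r was 0.92 for Pde10a with Rgs9, 0.91 for Penk with Rgs9, 0.89 for Ppp1r1b with Pde10a and 0.85 for Ppp1r1b with Penk. The pairs with Drd1 were the loosest, down to 0.65 with Ppp1r1b. The median of the 10 pairs was 0.84, and over all pairs of genes in the table the median was -0.0014 and the 95th percentile 0.42. Within single groups of 10 libraries, the lowest r was 0.45, for Drd1 with Pde10a in saline sham. These values describe libraries that share their depth scaling and dissection, and no p-value is attached.

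A library's level of one gene thus went with its level of the others, and the ratios of Pde10a and Rgs9 to Ppp1r1b were steadier than the levels. The SD of log2 counts within groups was 0.21 for Ppp1r1b and 0.19 for Pde10a, and that of their log2 ratio was 0.095. For Rgs9 the SD was 0.20, and 0.096 for its ratio to Ppp1r1b. Penk (0.29) and Drd1 (0.31) kept more spread in the ratio to Ppp1r1b, with 0.15 and 0.24, and for Drd1 that is more than the spread of Ppp1r1b itself. The ratio of Penk to Ppp1r1b counts averaged 1.08 ± 0.085 in saline sham, 1.03 ± 0.093 in memantine sham, 1.06 ± 0.12 in saline HF-HI and 1.09 ± 0.15 in memantine HF-HI (SD, n = 10 each), so that these group means lay within 1 SD of each other. The ratio of Rgs9 to Ppp1r1b averaged 1.06 ± 0.059, 1.04 ± 0.086, 1.11 ± 0.070 and 1.06 ± 0.068 in the same order. Saline HF-HI was the highest, but these means too lay within 1 SD of each other.

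**Figure D2:**
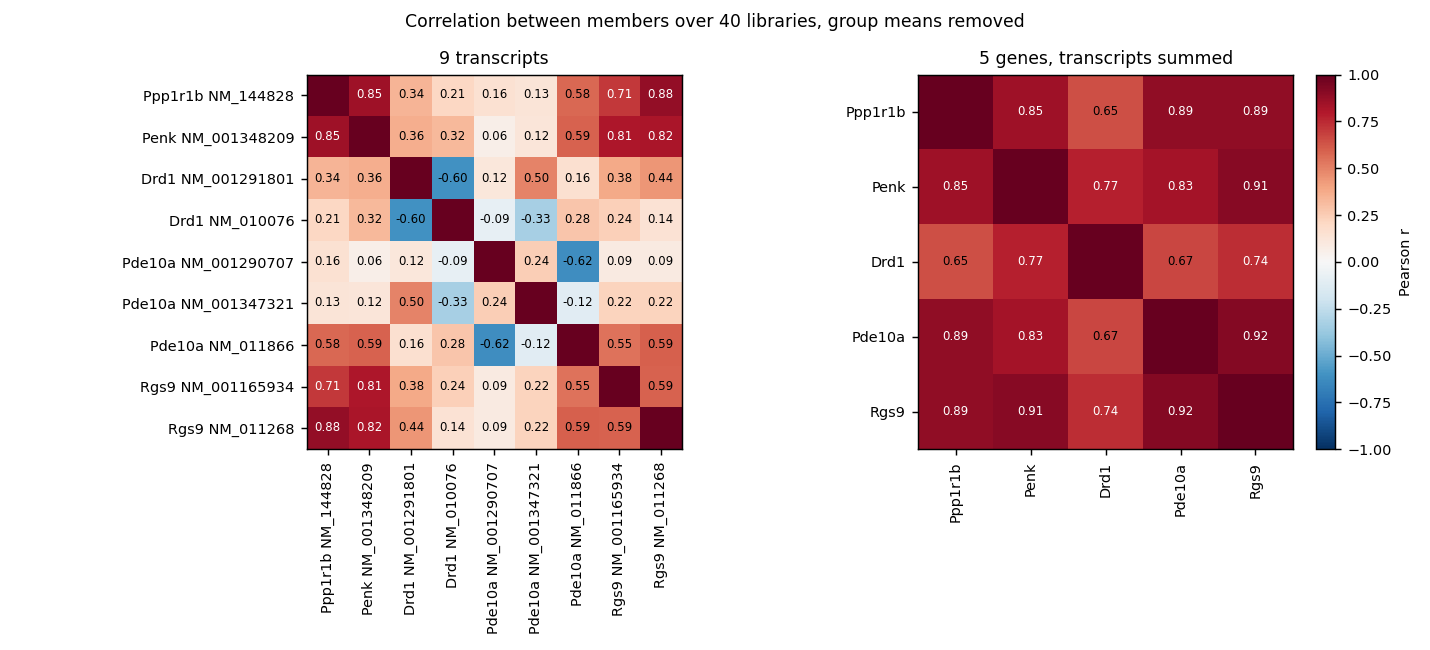
Pearson's r (colour and printed values) between the 9 member transcripts (left) and between the 5 genes with transcripts summed (right), over 40 libraries with group means removed. All gene pairs are positive, from 0.65 to 0.92, while the Drd1 pair of transcripts (-0.60) and a Pde10a pair (-0.62) are negative.

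The single transcripts of Drd1 and Pde10a behaved differently from their sums. The Drd1 transcripts NM_001291801 and NM_010076 were negatively correlated (r = -0.60, 40 libraries), and so were the Pde10a transcripts NM_001290707 and NM_011866 (r = -0.62). NM_010076 took between 8.67% and 83.0% of the Drd1 counts of a library. In Pde10a, NM_011866 took between 23.6% and 89.5%, NM_001290707 between 9.55% and 72.2%, and NM_001347321 between 0.437% and 16.8%. The coefficient of variation within groups was 48.0% and 41.2% for the Drd1 transcripts and 19.1% for their sum, and 33.2%, 54.9% and 30.4% for the Pde10a transcripts and 12.8% for their sum. Reads that fit several transcripts of a gene are divided between them by estimation, so levels of these single transcripts are uncertain. The Rgs9 transcripts, in contrast, were positively correlated (r = 0.59), and NM_001165934 took between 46.2% and 61.5% of the Rgs9 counts. The median share of the Drd1 transcript NM_001291801 was between 34.7% (saline sham) and 44.9% (saline HF-HI) over the groups, well inside its spread between libraries.

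**Figure D3:**
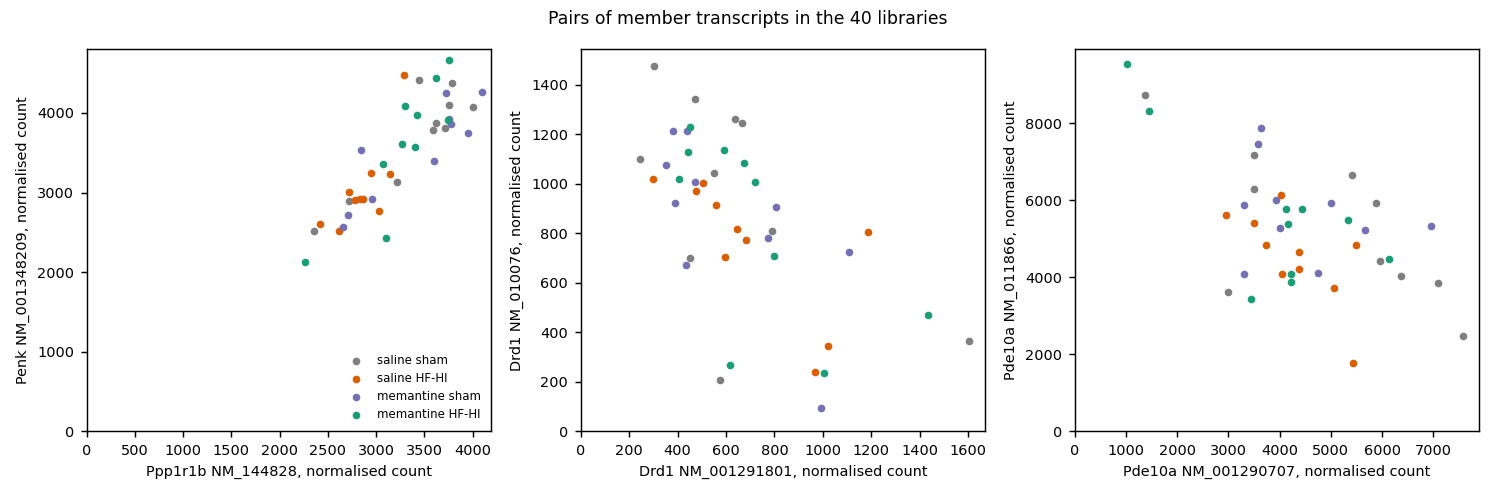
Normalised counts of pairs of member transcripts in the 40 libraries, coloured by group. Penk follows Ppp1r1b (left; r = 0.85 with group means removed), whereas the Drd1 transcripts (middle; r = -0.60) and the main Pde10a transcripts (right; r = -0.62) are high where the other is low.

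For the contrasts that chose the genes, the levels were as follows. Ppp1r1b averaged 3421 ± 517 normalised counts in saline sham and 2863 ± 255 in saline HF-HI (SD, n = 10 each), a difference of -16.3% in mean count and -0.15 ± 0.056 (SE) on the deposited scale. Saline HF-HI was also lower in the mean of Penk (-17.3%, or -0.17 ± 0.077 on the deposited scale), Pde10a (-16.1%, or -0.20 ± 0.068), Rgs9 (-12.1%, or -0.11 ± 0.055) and Drd1 (-8.27%, or -0.049 ± 0.061). Of the 9 transcripts, 8 were lower in saline HF-HI, the exception being the Drd1 transcript NM_001291801 at 0.06 ± 0.093. The median difference was -0.13 over the 9 transcripts, and -4.7e-05 over all 6831. On the list of other striatal projection neuron genes 37 of 47 transcripts were lower (median -0.061), and on the interneuron list 9 of 13 (median -0.038). On the dopamine signal transduction list, described below, 47 of 73 were lower (median -0.011), beside 3419 of all 6831.

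Within the impact groups all 5 genes were higher after memantine than after saline, by 15.1% for Ppp1r1b, 18.3% for Penk, 9.91% for Pde10a, 9.79% for Rgs9 and 6.22% for Drd1. Of the 9 transcripts, 8 were higher, with a median difference of 0.080, and on the striatal list 35 of 47 were higher, with a median of 0.023. Of all 6831 transcripts, 3429 were higher, with a median of 8.2e-05. Both contrasts use the same saline HF-HI libraries, so they are not independent of each other. Leaving out single libraries kept the direction for each gene. The saline difference of Penk ran from -21.6% without saline HF-HI replicate 1 to -15.5% without saline sham replicate 6, and that of Drd1 from -13.2% without saline sham replicate 4 to -5.74% without saline sham replicate 3. The memantine difference of Drd1 within the impact groups ran from 3.48% without memantine HF-HI replicate 8 to 11.3% without memantine HF-HI replicate 2. In bulk RNA, fewer striatal cells in a sample and less RNA per cell cannot be told apart.

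The contrasts that did not choose the genes were tested, although each of them shares libraries with those that did. In memantine HF-HI against memantine sham, 0 of the 9 transcripts passed an unadjusted limma p-value of 0.05, a threshold that 4.61% of all transcripts passed (2.39% higher and 2.23% lower). With transcripts summed by gene, 0 of the 5 genes passed, where 4.44% of all genes did. The smallest member p-value was 0.28 (adjusted limma p = 0.967), for the Pde10a transcript NM_001290707, which averaged 3852 ± 1571 normalised counts in memantine HF-HI and 4412 ± 1189 in memantine sham. By gene, the difference was -0.03 for Ppp1r1b (95% confidence interval -0.14 to 0.085), 0.02 for Penk (-0.14 to 0.17), 0.03 for Drd1 (-0.095 to 0.15), -0.08 for Pde10a (-0.22 to 0.057) and -0.0091 for Rgs9 (-0.12 to 0.10). At an adjusted p-value under 0.1, 0.0146% of all transcripts passed and 0 of the members.

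In memantine sham against saline sham, 0 of the 9 transcripts passed an unadjusted limma p-value of 0.05, against 7.51% of all transcripts (3.67% higher and 3.84% lower). By gene, 0 of 5 passed where 7.84% of all genes did, and at an adjusted p-value under 0.1, 0 of the members and 0.0293% of all transcripts passed. The smallest member p-value was 0.451 (adjusted limma p = 0.896), for the Pde10a transcript NM_011866. The mean of each of the 5 genes was below that of saline sham, with differences of -0.42% for Ppp1r1b, -4.91% for Penk, -6.79% for Drd1, -1.25% for Pde10a and -2.64% for Rgs9, and with intervals of the difference from -0.20 to 0.11 for Penk and from -0.12 to 0.11 for Ppp1r1b. Whether the impact difference under saline differs from that under memantine was not tested, because the saline difference chose the genes.

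**Figure D4:**
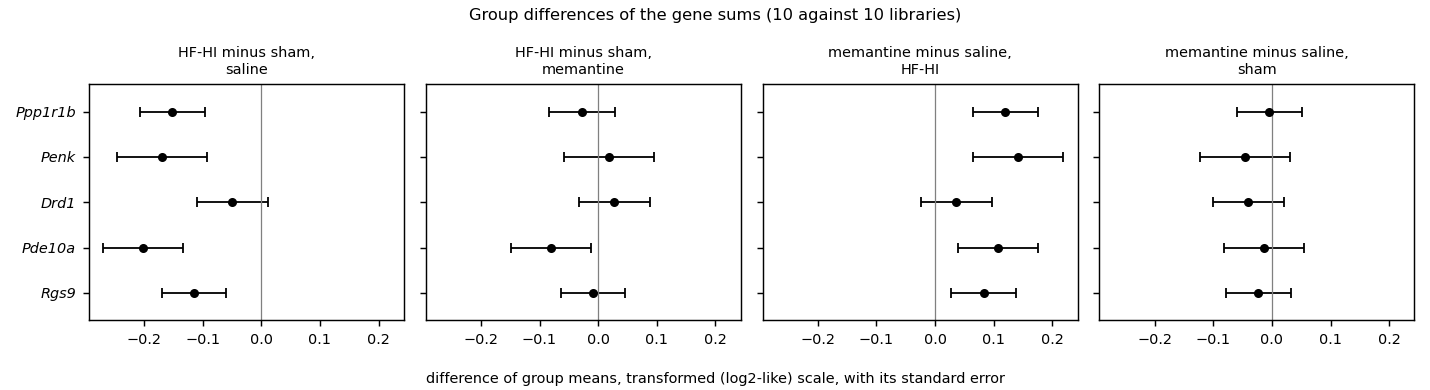
Difference of group means on the deposited scale (horizontal axis) for the 5 genes with transcripts summed, in 4 contrasts of 10 against 10 libraries. Bars are standard errors. The outer left and inner right contrasts chose the genes and carry no test, and in the other two no gene passed an unadjusted limma p-value of 0.05.

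The mean of the 9 transcripts was then set beside every other transcript, again with group means removed and each member scaled to unit SD. Among the transcripts most like it over 40 libraries were Pde1b, a calcium-dependent phosphodiesterase (NM_008800, r = 0.86), Strn, encoding striatin (NM_011500, 0.86), and Adcy5, the cyclase downstream of the D1 receptor (NM_001012765, 0.86). Tbc1d8 (0.83), Actn2 (0.83), Rasgrp2 (0.82), Sv2c (0.82), Scn4b (0.80) and Gprin3 (0.80) followed. Of these, Pde1b, Adcy5, Actn2, Rasgrp2 and Scn4b were on the list of striatal projection neuron genes. Adcy5 ran from 4128 to 7713 normalised counts and Pde1b from 4367 to 6923. The least alike were Nudt4 (NM_027722, r = -0.68), Hecw1 (NM_001081348, -0.67), Stxbp6 (NM_144552, -0.63), the Prkar1a transcript NM_001313973 (-0.62) and the Snap25 transcript NM_001291056 (-0.61).

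The striatal list held 47 transcripts of 34 genes in the table, of 53 listed. Their median r with the member mean was 0.46, and 20 of them (42.6%) had an r over 0.5. Of all 6822 transcripts other than the members, the striatal ones included, 1.39% did. Gnal, the G protein subunit at the D1 receptor (0.75), Rasd2 (0.69), Gng7 (0.69) and Pdyn, the dynorphin precursor (0.63), were among them. The Ptpn5 transcripts split, with 0.70 for NM_001163565 and -0.44 for NM_013643. The dopamine signal transduction list holds genes of the same cascade that many neurons use, and its 73 transcripts of 54 genes (of 64 listed) had a median r of 0.063, with 4 over 0.5 and 2 under -0.5. Akap5, an anchor of protein kinase A (0.66), and Prkar2b, a regulatory subunit of it (0.65), were highest.

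**Figure D5:**
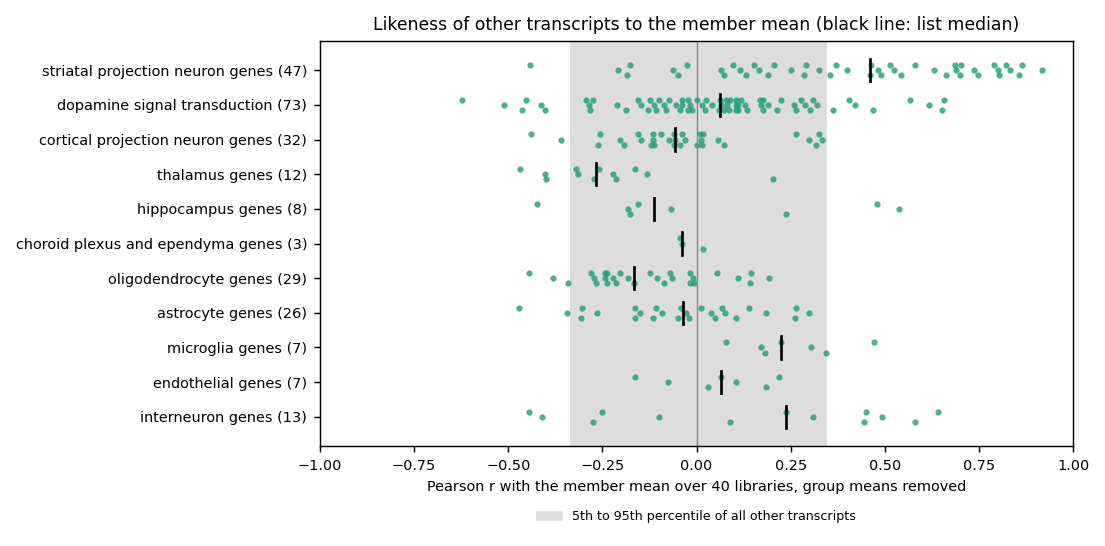
Pearson's r of single transcripts (points) with the mean of the 9 members over 40 libraries, group means removed, for 11 gene lists with the number of transcripts in brackets. Black lines are list medians. The grey band is the 5th to 95th percentile of all transcripts other than the members (-0.33 to 0.34). The striatal list lies to the right (median 0.46), and the dopamine signal transduction list is centred near 0 (median 0.063).

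Markers of other tissue and cells were given beside the members, as 9 list means and the summed count of the library, 10 relations in all over 40 libraries. No p-value is given because the member mean is a score over genes chosen with results known. Pearson's r was 0.43 ± 0.15 (standard error) for interneuron genes (Spearman's rho 0.44), 0.39 ± 0.16 for microglia genes (0.33) and -0.39 ± 0.16 for thalamus genes (-0.37). It was 0.28 ± 0.16 for dopamine signal transduction (0.31), -0.23 ± 0.16 for oligodendrocyte genes (-0.24), -0.12 ± 0.17 for astrocyte genes (-0.16), -0.083 ± 0.17 for cortical projection neuron genes (-0.040), 0.10 ± 0.17 for hippocampus genes (0.084), 0.10 ± 0.17 for endothelial genes (0.056) and 0.21 ± 0.17 for the summed count (0.26). Without the 2 libraries farthest from the median member mean, memantine HF-HI replicate 2 and saline sham replicate 8, r was 0.43 for interneuron, 0.45 for microglia and -0.415 for thalamus genes. Among the interneuron genes, which are those of GABA neurons, Slc32a1, the GABA vesicle transporter, was at 0.64 and Pvalb at -0.45, and Cnr1 (0.58) is also on the striatal list. Striatal projection neurons use GABA too.

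Summed over the list, striatal genes ran from 116956 to 154921 normalised counts in saline sham, from 124794 to 138498 in saline HF-HI, from 121565 to 157055 in memantine sham and from 120754 to 142522 in memantine HF-HI. Cortical projection neuron genes (32 transcripts of 24 genes of 38 listed) summed to between 78273 and 112828 in the 40 libraries, so that markers of the labelled tissue were present in every one. Thalamus genes (12 transcripts) ran from 14878 to 30414, and interneuron genes (13 transcripts) from 30910 to 37150. In choroid plexus, Ttr ran from 74 to 22031 normalised counts and had an r of 0.018 with the member mean. How much striatal tissue each dissection held was not measured, and its part in the group differences was not tested.

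The rest of the pathway was counted in the tested contrasts. By direction alone, 32 of the 47 striatal transcripts were lower and 15 higher in memantine HF-HI than in memantine sham (median -0.029). Of all 6831 transcripts, 3450 were lower and 3381 higher (median -0.00031). In memantine sham against saline sham, 24 striatal transcripts were lower and 23 higher (median -0.0019). These directions were not tested. In memantine HF-HI against memantine sham, 1 of the 47 striatal transcripts was higher and 0 were lower at an unadjusted limma p-value under 0.05 (2.13%), and of the 73 dopamine signal transduction transcripts 1 was higher and 3 were lower (5.48%), shares near or below the 4.61% of all transcripts. The former was the Arpp21 transcript NM_001177623, at 703 ± 195 against 525 ± 46 normalised counts (SD, n = 10 each; adjusted limma p = 0.967). The lower ones were Gng3, a G protein gamma subunit (929 ± 49 against 985 ± 37), Prkar1b (7590 ± 532 against 8026 ± 453) and the Ppp3cb transcript NM_001310426 of calcineurin (1936 ± 353 against 2427 ± 435), and the higher one was Gnai3 (840 ± 38 against 796 ± 59), each with an adjusted limma p of 0.967. Most abundant among the striatal transcripts were Itpr1, Rgs4, Ano3, Pde1b and Adcy5, with unadjusted limma p-values from 0.539 (Adcy5) to 0.914 (Itpr1) in this contrast.

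In memantine sham against saline sham, 1 of 47 striatal transcripts (2.13%) and 2 of 73 dopamine signal transduction transcripts (2.74%) passed the unadjusted threshold, both shares below the 7.51% of all transcripts. The striatal one was Rgs4, a regulator of G proteins, lower at 8183 ± 321 against 8704 ± 861 normalised counts (SD, n = 10 each; adjusted limma p = 0.641). Of the dopamine signal transduction transcripts, Rgs7bp, a membrane anchor of the Rgs9 family, was higher at 7192 ± 206 against 6895 ± 359 (adjusted limma p = 0.634), and Ppp1ca, the phosphatase that DARPP-32 inhibits, was lower at 2885 ± 158 against 3066 ± 179 (adjusted limma p = 0.604). None of these passed the adjusted threshold. Adcy1, Camk2a, Ppp3ca, Ppp3r1 and Camk2b, the most abundant of that list, had unadjusted limma p-values from 0.0742 (Adcy1) to 0.861 (Ppp3r1). Of the other 9 lists, those with the largest shares at an unadjusted limma p-value of 0.05 for impact under memantine were microglia genes (2 of 7, 28.6%), astrocyte genes (4 of 26, 15.4%) and endothelial genes (1 of 7, 14.3%), beside 4.61% of all transcripts. For memantine in sham they were interneuron genes (2 of 13, 15.4%), cortical projection neuron genes (4 of 32, 12.5%) and oligodendrocyte genes (3 of 29, 10.3%), beside 7.51% of all transcripts. These lists were not tested as lists.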

How the data were processed

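The authors sequenced cortical RNA of 40 mice, which the labels put in 4 groups of 10. Per the study's methods, ribosomal RNA was depleted, stranded libraries were aligned with STAR and counted per RefSeq transcript with eXpress, while the submitters' processing notes name HISAT2 and StringTie, and both give build mm10. The deposited values are log2-scale values from the variance-stabilising transformation of DESeq2, made by the authors. The table holds 6831 abundant transcripts (no mean under 549.2 normalised counts), and RefSeq gave a symbol for 99.7% of them. The transformation was inverted with its floor of 10.36 to give normalised counts. In every library 100% of values under 1500 counts were then whole numbers of reads within 0.05. Normalised counts of a gene's transcripts were summed and transformed again for the values by gene. The columns of all 40 samples were used.

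limma 3.58.1 in R 4.3.3 (lmFit, eBayes with a trend) was fitted to all transcripts with a term per group, two-sided, with Benjamini-Hochberg adjustment over all transcripts. The study's criterion for this experiment was an unadjusted p-value under 0.05, and an adjusted one under 0.1 was added. The replicates are separate labelled samples, and nothing in the labels gives a batch. The planned permutation p-values of the 10 correlations are not given, since they would test a score over the members. Transcripts of other genes were named as the 10 most and 5 least correlated with the member mean, the 5 most abundant of the striatal and the dopamine signal transduction lists, and any of these lists with an unadjusted p-value under 0.05 in a tested contrast. A transcript that this rule named is not reported here. Other genes of these lists were named after their values were seen. The members, the lists (striatum, dopamine signal transduction, cortical projection neurons, thalamus, hippocampus, choroid plexus, oligodendrocytes, astrocytes, microglia, endothelial cells and interneurons) and the tests were chosen with earlier results of these data known. Alternatives were other scalings and filters, library weights, sums by gene, a replicate block and leaving out each library. The scripts were tested on simulated data. Counting error covers sampling of reads only.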

Additional observations from a re-analysis of the deposited data

Results flagged for a closer look

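A library was singled out by its gap to the nearest library on the deposited scale. It was flagged where the gap took more of the group's range than Dixon's criterion for 10 values allows. Chance does this in about 1 in 20 groups. Values are printed below as normalised counts, in which a gap can take a smaller part of the range. Of 48 groups of values examined (9 transcripts and 3 sums of transcripts in 4 groups), 9 held such a library. Several of the 9 share a library or reads, so they are not separate events.

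Memantine HF-HI replicate 2 was low for Ppp1r1b (2266 normalised counts, the next library 3068), for the Rgs9 transcript NM_001165934 (1388, next 1830) and for the Pde10a sum (7189, next 9415). Saline HF-HI replicate 1 was high for Penk (4479, next 3244) and for the Drd1 sum (1991, next 1510). Saline sham replicate 8 was low for the Pde10a sum (7919, next 10496).

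The remaining 3 were single transcripts of Drd1 and Pde10a, whose single-transcript levels are uncertain because shared reads are divided by estimation. The Drd1 transcript NM_001291801 was high in saline sham replicate 3 (1604, next 792), the Drd1 transcript NM_010076 was low in memantine sham replicate 7 (94.4, next 670), and the Pde10a transcript NM_011866 was low in saline HF-HI replicate 2 (1785, next 3735).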

How the results depend on the processing

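The count of member transcripts at an unadjusted limma p-value under 0.05 was 0 of 9 in both tested contrasts, and it was 0 under each of 8 other settings and without each of the 40 libraries in turn. Over these settings the smallest member p-value in limma was 0.154 for impact under memantine and 0.221 for memantine in sham. The mean change of the 9 transcripts was -0.12 for impact under saline and -0.26 on the log2(normalised count + 1) scale, which compresses low counts less. Leaving out single libraries gave -0.14 to -0.097. The mean change was -0.032 for impact under memantine (-0.049 to -0.00030 without single libraries), 0.077 for memantine in HF-HI (0.057 to 0.11) and -0.0093 for memantine in sham (-0.032 to 0.011, so its sign turned on single libraries). An alternative added after the data were seen left out the library of each group farthest from its group mean on the unscaled member mean. These were saline sham replicate 8, saline HF-HI replicate 1, memantine sham replicate 4 and memantine HF-HI replicate 2. In the order of the contrasts above, the means were then -0.165, 0.016, 0.13 and -0.048, so that the sign for impact under memantine turned. On the scaled member mean, memantine sham replicate 8 (-0.85) lay slightly farther out than replicate 4 (0.83), so this turn rests on a near tie.

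Replicate numbers did not pair the samples: over 60 same-numbered pairs, r ran from -0.13 to 0.16, and 3 of 40 libraries correlated best with their own number. With a replicate block the mean changes were -0.12, -0.032, 0.077 and -0.0093 and 0 of 9 transcripts passed in either tested contrast. With the replicate block, r with the member mean was 0.48 for dopamine signal transduction, -0.56 for thalamus, 0.30 for hippocampus, -0.45 for oligodendrocyte and -0.33 for astrocyte genes. Each differed from its value without the block by more than 1 standard error of r. That standard error served only as a cutoff for naming shifts, since both values come from the same 40 libraries. With transcripts summed by gene symbol, r was 0.58 for interneuron genes. The cause of these shifts was not tested.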
